A study of Mus musculus with 4 samples.

Results

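The 65 genes described here, measured by 74 probe sets, were selected on their signals in osteoclast cultures with and without the transcription factor NFATc1. A probe set was taken when its mean wild-type signal was at least 200 and its lower wild-type signal was at least 3 times its higher deficient signal. The rule was applied to 20380 probe sets that carry 1 gene symbol, which stand for 12393 genes. Of the 8791 such probe sets with a wild-type mean of at least 200, 108 met the fold, which is 1.23%. They belong to 88 genes. A further list of 25 genes was left out by name, mostly known osteoclast genes such as Itgb3, Calcr, Oscar and Car2, and 23 of these genes, with 34 probe sets, had met the rule. Because the rule used all 4 arrays and the same contrast, the values of the 65 genes are a description and carry no test.

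The arrays were Affymetrix expression arrays of C57BL/6 mouse cultures, with 2 wild-type and 2 NFATc1-deficient samples. Both genotypes carried floxed Nfatc1 alleles (NFATc1 fl/fl). The wild-type mice lacked the Cre transgene (MxCre-), and the deficient mice carried it (MxCre+) and received poly I:C to induce excision. Mx-Cre is driven by an interferon-inducible promoter that is active in many cell types, so the loss is not limited to osteoclast precursors. The sources used here do not say if poly I:C was given to the wild-type mice, nor which part of the gene was floxed. Each sample came from pooled marrow, of 3 mice for replicate 1 and 4 mice for replicate 2 of each genotype. Precursors were sorted as CD11b- CD3e- B220- cells positive for c-Kit and c-Fms, plated at 20000 per well and grown for 3 days with M-CSF and RANKL. Values are MAS5 signals, a linear summary of the probes of 1 probe set, and signals of different probe sets are not comparable with each other. In a whole culture, fewer osteoclasts and less RNA per osteoclast cannot be told apart.

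NFATc1 is the transcription factor that RANKL signalling amplifies in myeloid precursors, through calcium and the phosphatase calcineurin, as they become osteoclasts. It binds the DNA core GGAAA, often beside the AP-1 proteins Fos and Jun, which bind sites of the form TGANTCA, and it turns on genes for cell fusion, attachment to bone, acid secretion and matrix digestion. Osteoclasts are multinucleated cells that dissolve bone mineral and digest its collagen.

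The part of a gene just before its start site is where such factors can bind, so the start regions of the 65 genes were read from RefSeq windows (GRCm38.p6), which span 250 bases before to 50 bases after each start. The windows covered 49 of the 65 genes, with 76 windows in all. The other 16 genes had no window: Aldh7a1, Amacr, Arap3, Clmp, Edil3, Ext1, Gng11, Pate4, Pkp2, Plpp1, Rftn2, Siae, Slc14a2, Slc16a7, Slc18a1 and Trav9d-3. Each motif was searched as its letters on both strands. The AP-1 form TGANTCA was found in a window of 14 of the 49 genes. Ezr is among the 14, though another of its probe sets was higher in deficient cultures, as given below. All 15 matches are shown with 10 bases on either side, read in the direction of the gene, with the motif in capitals.
Cd84 (chr1:171839458-171839484, plus strand): cagtttctctTGAGTCAattttcttgt
Prnp (chr2:131909816-131909842, plus strand): tccggagcggTGACTCAttcccccacc
Gask1b (chr3:79885686-79885712, plus strand): ttcttatttcTGAATCAcaaaaagggg
Gask1b (chr3:79885943-79885969, plus strand): gttgagttagTGATTCAgtcaactctt
Fblim1 (chr4:141606116-141606142, minus strand): ataccctctgTGAGTCAgacattccgt
Arap2 (chr5:62766337-62766363, minus strand): gcaggcgggcTGACTCAgctgcgcaac
Tfpi2 (chr6:3968436-3968462, minus strand): gcctaaggcgTGAATCAgccacgttat
Slc37a2 (chr9:37255829-37255855, minus strand): ccgcagatcaTGAGTCAgcgcggtggt
Ccr3 (chr9:124021817-124021843, plus strand): agtctgtccaTGAGTCAatgattattg
Sphk1 (chr11:116531777-116531803, plus strand): agcgtgtcgcTGAGTCAccttctcgga
Retreg1 (chr15:25940691-25940717, plus strand): aacttccccgTGACTCAaaggaggaga
Ezr (chr17:6782796-6782822, minus strand): cgatcgggcgTGACTCAtcttgggacc
Rcan2 (chr17:43952964-43952990, plus strand): acagcaccagTGACTCAgttcctcacg
Ablim1 (chr19:57274820-57274846, minus strand): aggtactgccTGACTCActataaaagg
Capn6 (chrX:143827454-143827480, minus strand): attttcctcgTGACTCAggatcagttt
In 12 of the 15 stretches the motif is TGAGTCA or TGACTCA, the forms that AP-1 binds best in textbook accounts. The motif began before the start site in 14 stretches and after it in 1, the latter in Gask1b. In 7 it began within the 100 bases before the start, and in Retreg1 it ran across the start. Only the Capn6 stretch also held the NFAT core GGAAA within the bases shown.

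The share of genes with a TGANTCA match was 28.6% for the 49 genes. It was 8.97% for the 27025 genes of the whole promoter table, 6.05% for the 4793 array genes with a wild-type mean of at least 200, and 8.13% for 824 other genes called lower in deficient cultures. With the first window of each gene alone, the shares were 18.4%, 7.93%, 4.76% and 6.19% in the same order, so the member share depends on whether alternative starts are counted. The NFAT core GGAAA was found in 59.2% of the member genes and in 64.4% of the whole table. A 7-base form bound by PU.1, GAGGAAG, was found in 20.4% of the member genes and 15.4% of the whole table. The E-box CACGTG, bound by the MiT factors of osteoclasts, was found in 6.12% and 8.09%. Its share was 13.1% for the array genes with a wild-type mean of at least 200 and 12.1% for the other genes called lower. Median GC content was 59.3% for the member windows, 52.7% for the whole table and 61.3% for the array genes with a wild-type mean of at least 200. These shares are descriptions of letters in windows, not of bound sites.

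**Figure D1:**
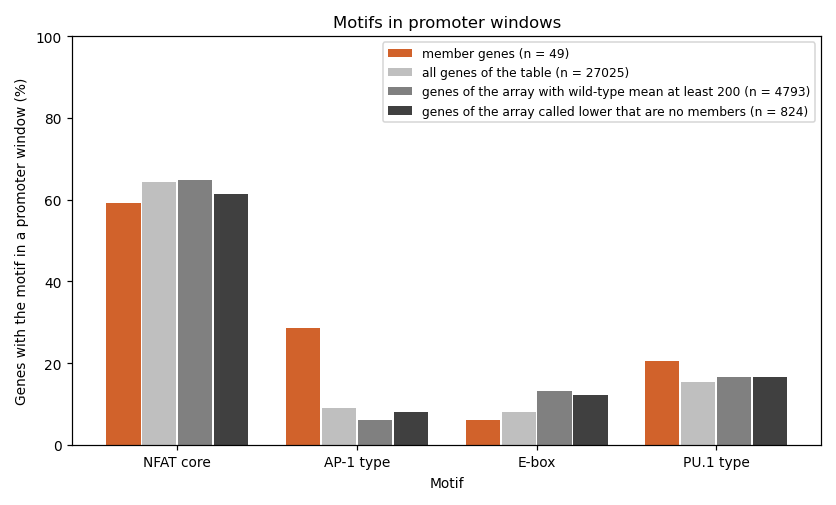
Share of genes (%) with each of 4 motifs in any promoter window, for the 49 member genes and 3 comparison groups given in the legend. The AP-1 type bar stands at 28.6% for the members and between 6.05% and 8.97% for the other groups, and the NFAT core bars lie between 59.2% and 64.8%.

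Whole windows are printed for 4 members. Slc37a2, Gask1b and Cd84 hold both motifs, and Tgfbr2 holds the NFAT core without TGANTCA. Capitals mark GGAAA, or its complement TTTCC, and TGANTCA.
Slc37a2 (chr9:37255689-37255988, minus strand): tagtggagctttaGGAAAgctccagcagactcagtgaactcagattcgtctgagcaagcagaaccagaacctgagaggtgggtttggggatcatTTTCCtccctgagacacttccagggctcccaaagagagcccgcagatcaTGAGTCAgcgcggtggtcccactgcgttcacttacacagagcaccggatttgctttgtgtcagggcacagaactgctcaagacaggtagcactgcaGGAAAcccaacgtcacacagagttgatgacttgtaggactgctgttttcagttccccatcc
Gask1b (chr3:79885680-79885979, plus strand): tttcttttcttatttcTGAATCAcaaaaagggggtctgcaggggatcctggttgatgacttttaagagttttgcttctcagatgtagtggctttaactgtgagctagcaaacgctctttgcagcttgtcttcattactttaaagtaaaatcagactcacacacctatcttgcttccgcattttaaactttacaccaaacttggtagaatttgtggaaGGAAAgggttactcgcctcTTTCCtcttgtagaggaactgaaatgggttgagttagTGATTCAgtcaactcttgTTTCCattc
Cd84 (chr1:171839447-171839746, plus strand): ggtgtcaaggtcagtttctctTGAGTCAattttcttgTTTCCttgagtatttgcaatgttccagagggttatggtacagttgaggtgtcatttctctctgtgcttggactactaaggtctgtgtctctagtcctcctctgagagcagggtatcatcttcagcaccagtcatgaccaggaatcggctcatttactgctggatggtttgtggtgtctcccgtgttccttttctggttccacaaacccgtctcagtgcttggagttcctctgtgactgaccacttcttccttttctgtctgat
Tgfbr2 (chr9:116175314-116175613, minus strand): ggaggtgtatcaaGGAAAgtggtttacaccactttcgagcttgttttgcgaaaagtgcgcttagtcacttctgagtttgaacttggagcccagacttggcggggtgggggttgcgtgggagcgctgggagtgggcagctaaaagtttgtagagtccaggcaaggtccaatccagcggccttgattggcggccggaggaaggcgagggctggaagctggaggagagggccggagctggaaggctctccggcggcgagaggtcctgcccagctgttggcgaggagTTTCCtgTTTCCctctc
The Slc37a2 window holds 3 NFAT cores, of which 1 starts 11 bases before the start site, and 1 AP-1 form. The Gask1b window holds 3 NFAT cores and 2 AP-1 forms. Cd84 holds 1 of each, close together and more than 200 bases before the start. Tgfbr2 holds 3 NFAT cores, of which 2 lie after the start.

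Nfatc1 itself, the targeted gene, was measured by 2 probe sets. The first gave 5434 and 6147 in wild-type cultures and 3018 and 4098 in deficient cultures (log2 change -0.71, SE 0.15, limma adjusted p = 0.0104). The second gave 2681 and 2860.4 in wild-type and 1718 and 2079 in deficient cultures (log2 change -0.55, adjusted p = 0.0129). Deficient cultures thus kept 61.5% and 68.5% of the wild-type Nfatc1 signal. Where these probes lie against the excised part is not stated in the labels, so they check the genotypes only in direction. Over all 13577 probe sets tested with limma, 1552 (11.4%) were lower and 1740 (12.8%) were higher in deficient cultures; without deficient replicate 1 these counts were 937 and 840.0. Of 8 measured osteoclast markers, Acp5, Ctsk, Mmp9, Ocstamp and Car2 were at 1397 or more on every array, while Calcr, Itgb3 and Oscar were at most 118 on the deficient arrays. Acp5, the tartrate-resistant acid phosphatase, gave 10633 and 12886 in wild-type and 4074 and 5518 in deficient cultures. The pools also differed by number, with Xist high in replicate 1 of both genotypes and Eif2s3y in replicate 2.

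Across the 65 genes, taking for each the member probe set with the highest wild-type mean, the wild-type mean ran from 211 to 6527, with a median of 640.4. The deficient mean ran from 6.50 to 1343, with a median of 104. Deficient cultures kept a median of 19.3% of the wild-type signal, between 2.03% and 29.8%. In 9 genes the deficient mean was under 10% of the wild-type mean, in 25 it was between 10% and 20%, and in 31 it was 20% or more. In 3 genes, Denn2b, Gimap6 and Tmem98, the deficient mean was below 23.3, the 25th percentile of all signals on the arrays. Detection calls were not used here, so the size of the difference is not known for these 3 genes. It is also uncertain for other genes with dim deficient signals, and ratios given below carry this limit. The median deficient mean of 104 lay below the median signals of the deficient arrays, 114 for replicate 1 and 125 for replicate 2. With 23.3 added to each signal before the fold, 59 of the member probe sets, in 51 genes, still met the rule.

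**Figure D2:**
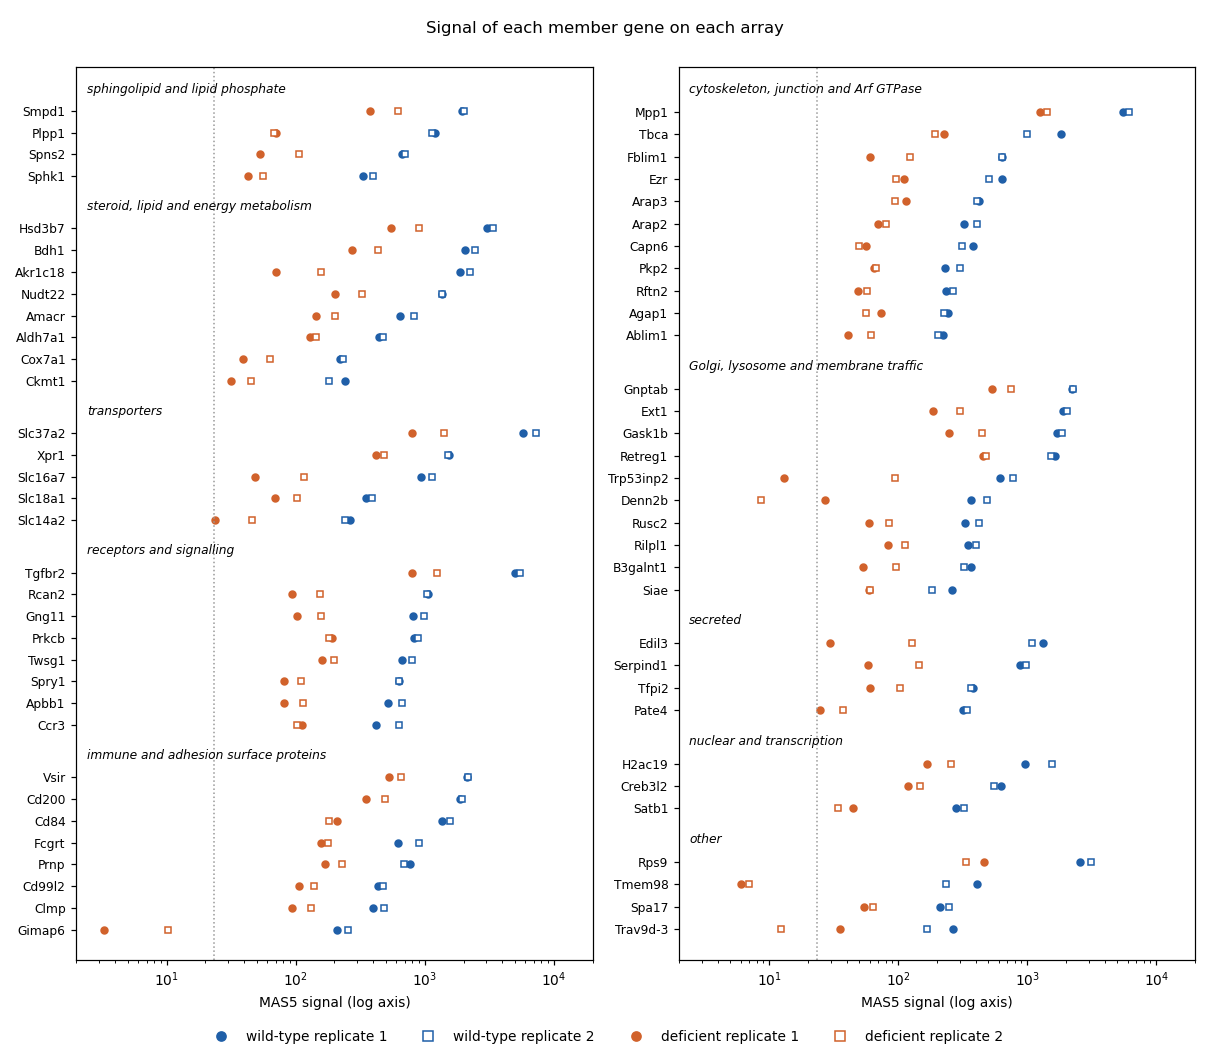
MAS5 signal (log axis) of the 65 member genes on each of the 4 arrays, grouped by role, with 1 probe set per gene. Blue marks are wild-type and orange marks deficient, circles are replicate 1 and squares replicate 2, and the dotted line is the 25th percentile of all signals, 23.3; in every gene both orange marks lie left of both blue marks, as the rule requires.

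**Figure D3:**
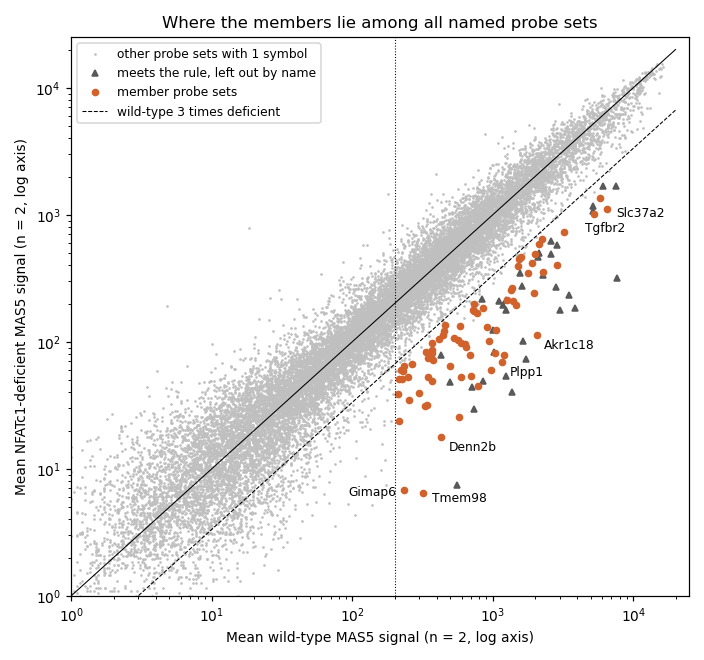
Mean wild-type signal against mean deficient signal (both log axes starting at 1, n = 2 arrays each) for all probe sets with 1 symbol. Orange points are the 74 member probe sets, grey triangles the 34 probe sets left out by name, the solid line marks equal signal, the dashed line a 3-fold ratio and the dotted line the minimum of 200; members reach from the dimmest allowed signals to 6527.

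Among enzymes and carriers of sphingolipids and lipid phosphates, 4 genes met the rule: Smpd1, Plpp1, Spns2 and Sphk1. Sphingosine 1-phosphate is a lipid signal that guides the traffic of osteoclast precursors and that osteoclasts release toward bone-forming cells. Sphk1, the kinase that makes it, gave 333 and 401 in wild-type cultures and 43.0 and 56.0 in deficient cultures, a ratio of means of 7.41. Spns2, the carrier that exports it from cells, gave 662 and 707 in wild-type cultures and 52.6 and 106 in deficient cultures, a ratio of 8.65, with 7.69% and 15.4% of the wild-type mean on the deficient arrays. Plpp1, a surface phosphatase that removes the phosphate from lipid phosphates, gave 1193 and 1143 in wild-type cultures and 71.0 and 67.8 in deficient cultures. Its means were 1168 ± 35.1 against 69.4 ± 2.26 (SD, n = 2 each), a ratio of 16.8, and the deficient arrays lay close together. A further Plpp1 probe set gave 1002 and 925 in wild-type cultures and 45.2 and 74.8 in deficient cultures, a ratio of 16.1. Smpd1, the acid sphingomyelinase of lysosomes, gave 1939 and 2027 in wild-type cultures and 374 and 616 in deficient cultures, a ratio of 4.004. These 4 genes were grouped by hand from genes already selected on this contrast, so the grouping is no result about the pathway.

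Relatives of these genes that are not members were read from the limma fit, which compares deficient with wild-type cultures over 7798 genes (1 probe set each, 931 or 11.9% lower and 1005 or 12.9% higher). Of 121 relatives of the members in 23 families, listed after the members were known, 81 were tested, 12 were lower, 11 were higher and 58 did not pass, with a median log2 change of -0.11 against 0.03 over all genes. The count of higher relatives was 7 without either deficient array. Of 13 tested relatives in the sphingolipid family, 2 fell and 2 rose. Sphk2, the other sphingosine kinase, gave 719 and 802 in wild-type cultures and 334 and 372 in deficient cultures (log2 change -1.06, SE 0.14, adjusted p = 0.00137). Only 1 of its 2 tested probe sets passed. Sgpl1, the lyase that breaks sphingosine 1-phosphate down for good, gave 1923 and 2279.7 in wild-type cultures and 1017 and 1251 in deficient cultures (log2 change -0.88, SE 0.14, adjusted p = 0.00289). Sgpp1, a phosphatase of the same lipid inside the cell, was higher, at 399 and 298 in wild-type cultures and 662 and 603 in deficient cultures (log2 change 0.83, SE 0.17, adjusted p = 0.00868), on 1 of 3 probe sets. Cers5, a ceramide synthase, had a log2 change of 0.37 (adjusted p = 0.0364), a call that was lost without wild-type replicate 2 or either deficient array. Plpp2, a close relative of Plpp1, was also higher, at 376 and 386 in wild-type cultures and 625 and 764 in deficient cultures (log2 change 0.82, SE 0.15, adjusted p = 0.0051). The sphingolipid genes outside the members thus moved in both directions.

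In steroid, lipid and energy metabolism the rule found 8 genes: Hsd3b7, Bdh1, Akr1c18, Nudt22, Amacr, Aldh7a1, Cox7a1 and Ckmt1. Akr1c18, a hydroxysteroid dehydrogenase that inactivates progesterone, gave 1863 and 2238 in wild-type cultures and 70.7 and 156 in deficient cultures. Its means were 2050.5 ± 265 against 114 ± 60.6 (SD, n = 2 each), a ratio of 18.1, and the deficient arrays held 3.45% and 7.63% of the wild-type mean. Hsd3b7, an enzyme of bile acid synthesis that also acts on oxysterols, gave 3060.2 and 3401 in wild-type cultures and 552 and 900.3 in deficient cultures, a ratio of 4.45. Bdh1, the mitochondrial enzyme that interconverts the main ketone bodies, gave 2064 and 2466 in wild-type cultures and 273 and 434 in deficient cultures, a ratio of 6.41. On its other member probe set Bdh1 gave 615 and 572 in wild-type cultures and 38.6 and 66.2 in deficient cultures, a ratio of 11.3. Nudt22, a hydrolase of UDP-sugars, gave 1366 and 1371 in wild-type cultures and 201 and 326 in deficient cultures. Its second probe set gave 1232 and 1456 in wild-type cultures and 209 and 302 in deficient cultures, so both placed the deficient cultures close to 19.2% of wild-type. Amacr, a racemase of branched fatty acids and bile acid intermediates, Aldh7a1, an aldehyde dehydrogenase of lysine breakdown, Cox7a1, a cytochrome c oxidase subunit, and Ckmt1, the mitochondrial creatine kinase, kept between 18.2% and 29.8% of the wild-type signal.

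The ketone body enzymes next to Bdh1 were lower as well. Oxct1, which commits ketone bodies to use as fuel, gave 6628 and 7599 in wild-type cultures and 3310.5 and 3891 in deficient cultures (log2 change -0.98, SE 0.12, adjusted p = 0.0011), and 3 of its 4 tested probe sets passed. Acat1, the thiolase that follows it, gave 3504 and 3639.6 in wild-type cultures and 2320.0 and 2436 in deficient cultures (log2 change -0.58, SE 0.10, adjusted p = 0.0045), on 1 of 3 probe sets. Both tested relatives in the ketone body family thus fell. Of the aldo-keto reductases, 6 non-members were tested, 2 were lower and 4 did not pass. Akr1c13, a relative of Akr1c18, had a log2 change of -0.52 (adjusted p = 0.0303). This call was lost without either deficient array or without wild-type replicate 2. Akr1b8, a reductase of aldehydes, gave 3350.1 and 3884 in wild-type cultures and 1500.1 and 1797 in deficient cultures (log2 change -1.12, SE 0.13, adjusted p = 0.000733).

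Of membrane transporters, 5 were members: Slc37a2, Xpr1, Slc16a7, Slc18a1 and Slc14a2. Slc37a2, a sugar phosphate carrier of the endoplasmic reticulum and of secretory lysosomes in osteoclasts, gave 5808 and 7245 in wild-type cultures and 803 and 1408 in deficient cultures. Its means were 6527 ± 1017 against 1106 ± 428 (SD, n = 2 each), a ratio of 5.90. Its window above carries both motifs. Xpr1, the phosphate exporter of animal cells, gave 1539 and 1525 in wild-type cultures and 416 and 487 in deficient cultures, a ratio of 3.39. Slc16a7, the monocarboxylate carrier MCT2 for lactate, pyruvate and ketone bodies, gave 929 and 1149.7 in wild-type cultures and 48.1 and 115 in deficient cultures, a ratio of 12.7, with 4.63% and 11.1% of the wild-type mean on the deficient arrays. Slc18a1, a vesicular monoamine transporter, and Slc14a2, a urea transporter, kept 23.1% and 13.8% of the wild-type signal. In all 5 transporters deficient replicate 2 lay above deficient replicate 1. The same order held in 58 of the 74 member probe sets (78.4%). It also held in 72.6% of the probe sets called lower that are no members, so it was not particular to transporters.

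The 2 relatives of these carriers that passed were higher. Tested were 3 relatives of Slc16a7, 2 of Slc37a2 and 2 of Xpr1. Those of Slc37a2 did not pass, with log2 changes of -0.68 for Slc37a3 (adjusted p = 0.064) and -0.24 for Slc37a4 (adjusted p = 0.387). Slc16a1, the monocarboxylate carrier MCT1, rose: it gave 724 and 722 in wild-type cultures and 1231 and 1334 in deficient cultures (log2 change 0.81, SE 0.11, adjusted p = 0.00183). Slc20a1, a phosphate importer, had a log2 change of 0.69 (adjusted p = 0.0486), and this call was lost when wild-type replicate 1 or either deficient array was left out. Over the family list of solute carriers, 16 non-members were tested, 3 were lower and 6 were higher, with a median log2 change of -0.02. The lower ones were the creatine carrier Slc6a8 (-1.15), the glutamine carrier Slc1a5 (-0.89) and the nucleoside carrier Slc29a1 (-0.70). Beside Slc16a1 and Slc20a1, the higher ones were the salt carrier Slc12a2 (0.93), the amino acid carriers Slc7a5 (0.65) and Slc38a2 (0.52), and the glucose carrier Slc2a1 (0.53). Each of these last 4 calls was lost without 1 of the deficient arrays.

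Receptors and signalling proteins gave 8 members: Tgfbr2, Rcan2, Gng11, Prkcb, Twsg1, Spry1, Apbb1 and Ccr3. Tgfbr2, the receptor subunit that binds TGF-beta, a factor stored in bone and freed as it is resorbed, gave 5041 and 5527 in wild-type cultures and 800.5 and 1243 in deficient cultures. Its means were 5284 ± 344 against 1022 ± 313 (SD, n = 2 each), a ratio of 5.17. A second Tgfbr2 probe set gave 530.1 and 622 in wild-type cultures and 35.9 and 15.6 in deficient cultures, with deficient signals around the 25th percentile of all signals. Twsg1, a secreted protein that binds bone morphogenetic proteins and is known to limit osteoclast formation, gave 666 and 792 in wild-type cultures and 161 and 197 in deficient cultures, a ratio of 4.06. Its other member probe set gave 339.9 and 325 in wild-type cultures and 83.3 and 83.0 in deficient cultures, a ratio of 3.996, so both probe sets placed deficient cultures at a similar share of wild-type. Rcan2, a regulator of calcineurin, the phosphatase that activates NFAT proteins, gave 1066 and 1038 in wild-type cultures and 93.2 and 155 in deficient cultures, a ratio of 8.48. Apbb1, an adaptor that binds the amyloid precursor protein, gave 522 and 665 in wild-type cultures and 80.6 and 114 in deficient cultures on 1 probe set and 481 and 504 in wild-type cultures and 39.8 and 88.8 in deficient cultures on the other. Gng11, a G protein gamma subunit, Prkcb, a protein kinase C, Spry1, an inhibitor of growth factor signalling to ERK, and Ccr3, the eotaxin receptor, kept between 14.4% and 21.7% of the wild-type signal.

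Relatives of these signalling proteins passed in both directions. Tgfbr1, the signalling subunit that pairs with Tgfbr2, gave 5221 and 5045 in wild-type cultures and 2478 and 3251 in deficient cultures (log2 change -0.85, SE 0.14, adjusted p = 0.00319), and 3 of 3 probe sets passed. Tgfb1, a ligand of the pair, had a log2 change of -0.50 (adjusted p = 0.0186), which did not pass without deficient replicate 1. Acvr1, a bone morphogenetic protein receptor, was higher, at 549 and 496 in wild-type cultures and 782 and 968 in deficient cultures (log2 change 0.71, SE 0.15, adjusted p = 0.00891), on 1 of 3 probe sets. In the TGF-beta and BMP family, 10 relatives were tested, and the other 7 did not pass. Prkch, another protein kinase C, gave 1131 and 1168 in wild-type cultures and 333 and 446 in deficient cultures (log2 change -1.52, SE 0.15, adjusted p = 0.000474). Spry2, the sprouty paralog of Spry1, was higher, at 215 and 169.9 in wild-type cultures and 395 and 367 in deficient cultures (log2 change 0.91, SE 0.18, adjusted p = 0.00769). Sprouty members thus lay on opposite sides, Spry1 at 633 and 627 in wild-type cultures and 81.3 and 110.2 in deficient cultures.

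Surface proteins of immune recognition and adhesion gave 8 members: Vsir, Cd200, Cd84, Fcgrt, Prnp, Cd99l2, Clmp and Gimap6, the last a cytosolic GTPase of lymphocytes placed here for its immune role. Cd200, a surface ligand that restrains myeloid cells and takes part in osteoclast formation, gave 1863 and 1941 in wild-type cultures and 348 and 493 in deficient cultures, a ratio of 4.52. Vsir, the immune checkpoint protein VISTA, gave 2111 and 2152 in wild-type cultures and 526 and 653 in deficient cultures, a ratio of 3.62. Cd84, a self-binding receptor of the SLAM family, gave 1372 and 1559.8 in wild-type cultures and 209.5 and 181 in deficient cultures, a ratio of 7.50. Both wild-type signals of each lay above both deficient signals, as the rule requires. Gimap6 gave 210.1 and 254 in wild-type cultures and 3.30 and 10.3 in deficient cultures, where both deficient signals are under the 25th percentile of all signals. Prnp, the prion protein, gave 767 and 695 in wild-type cultures and 169 and 227 in deficient cultures. Clmp, a cell adhesion protein of tight junctions, gave 399 and 488 in wild-type cultures and 93.8 and 130.4 in deficient cultures. Fcgrt, the neonatal Fc receptor, and Cd99l2, a protein of leukocyte passage through vessel walls, kept 21.8% and 27.1%. Cd200r1, the receptor of Cd200, was lower, with 245 and 237 in wild-type cultures and 137 and 113 in deficient cultures (log2 change -0.84, SE 0.20, adjusted p = 0.0173), but did not pass without deficient replicate 2. Slamf9, a SLAM family relative of Cd84, had a log2 change of -0.79 (adjusted p = 0.0210), which was lost without wild-type replicate 2 or deficient replicate 2.

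The cytoskeleton, junction and Arf GTPase group held 11 members: Mpp1, Tbca, Fblim1, Ezr, Arap3, Arap2, Capn6, Pkp2, Rftn2, Agap1 and Ablim1. Mpp1, a scaffold that ties the actin skeleton to the membrane, gave 5513 and 6109 in wild-type cultures and 1258 and 1429 in deficient cultures, a ratio of 4.33. Fblim1, or migfilin, an adaptor of integrin attachment sites, gave 642 and 639 in wild-type cultures and 60.6 and 122 in deficient cultures, a ratio of 6.995, with 9.46% and 19.1% of the wild-type mean on the deficient arrays. A further Fblim1 probe set gave 364 and 322 in wild-type cultures and 36.9 and 26.2 in deficient cultures, a ratio of 10.9. Arap2, Arap3 and Agap1 switch off Arf GTPases, and they kept 20.6%, 25.04% and 27.5%. None of 4 tested Arf GAP relatives passed in either direction. Capn6, a calpain without protease activity, Pkp2, a desmosome protein, Rftn2, a lipid raft protein, and Ablim1, an actin-binding LIM protein, kept between 15.4% and 24.9%. Tbca, a tubulin folding cofactor, and Ezr, the membrane linker ezrin, are treated with their other probe sets below. Of the relatives of Ezr, Rdx rose, at 1839.5 and 1939.8 in wild-type cultures and 3324 and 2998 in deficient cultures (log2 change 0.73, SE 0.11, adjusted p = 0.00209), on 1 of 3 probe sets. Msn (log2 change -0.52, adjusted p = 0.0106) and Nf2 (-0.65, adjusted p = 0.0179) were lower but did not pass without deficient replicate 1, and Nf2 also not without wild-type replicate 1. Pkp4, a relative of Pkp2 (0.56), and Capn7, a relative of Capn6 (0.38), were higher. The Pkp4 call was lost without either deficient array or without wild-type replicate 1, and the Capn7 call was lost without any 1 of the 4 arrays and under 4 other settings of the fit.

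Proteins of the Golgi, lysosome and membrane traffic gave 10 members: Gnptab, Ext1, Gask1b, Retreg1, Trp53inp2, Denn2b, Rusc2, Rilpl1, B3galnt1 and Siae. Gnptab, the enzyme that starts the mannose 6-phosphate tag by which hydrolases reach lysosomes, gave 2232 and 2263 in wild-type cultures and 535 and 744 in deficient cultures, a ratio of 3.51. Its second member probe set gave 1414 and 1628 in wild-type cultures and 335 and 452 in deficient cultures, a ratio of 3.87. Another Gnptab probe set fell short of the rule, at 4298 and 4332 in wild-type cultures and 1238 and 1599.7 in deficient cultures. Ext1, a polymerase of heparan sulphate, gave 1897 and 2043 in wild-type cultures and 184 and 301 in deficient cultures, a ratio of 8.11. None of 6 tested heparan sulphate enzymes beside it passed. Gask1b, a kinase-like protein of the Golgi, gave 1711 and 1868 in wild-type cultures and 249 and 446 in deficient cultures, a ratio of 5.15. Retreg1, a receptor for autophagy of the endoplasmic reticulum, gave 1633 and 1534 in wild-type cultures and 452 and 476 in deficient cultures, a ratio of 3.41. Retreg3, a relative of Retreg1, was higher on 1 probe set (0.68) but not on its other one (-0.28), and the call was lost without either deficient array. Trp53inp2, a protein of autophagosome formation, gave 612 and 781 in wild-type cultures and 13.1 and 94.3 in deficient cultures, which is 1.88% and 13.5% of the wild-type mean. Denn2b, an activator of a Rab GTPase, gave 368 and 486 in wild-type cultures and 27.0 and 8.60 in deficient cultures, around or below the 25th percentile of all signals in the latter. Rilpl1, a Rab-binding protein, gave 345 and 399.6 in wild-type cultures and 83.7 and 113 in deficient cultures. Siae, a sialic acid esterase, gave 259 and 183 in wild-type cultures and 58.9 and 60.9 in deficient cultures. Rusc2, a Rab effector, and B3galnt1, a glycolipid synthase, kept 19.2% and 21.8%.

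Of secreted proteins, 4 were members: Edil3, Serpind1, Tfpi2 and Pate4. Edil3, a matrix protein that binds alpha-v integrins, gave 1314 and 1089 in wild-type cultures and 29.5 and 129 in deficient cultures, a ratio of 15.2. The deficient arrays held 2.45% and 10.7% of the wild-type mean, so the size of the ratio rests on which is used. Its second probe set gave 849 and 715 in wild-type cultures and 32.4 and 56.7 in deficient cultures, a ratio of 17.5. Mfge8, the paralog of Edil3, was lower too, at 836 and 688 in wild-type cultures and 363 and 447 in deficient cultures (log2 change -0.88, SE 0.16, adjusted p = 0.00544). Serpind1, a thrombin inhibitor, gave 884 and 983 in wild-type cultures and 58.0 and 145 in deficient cultures, a ratio of 9.20, with 6.21% and 15.5% of the wild-type mean on the deficient arrays. Pate4, a small secreted protein known from the male reproductive tract, gave 319 and 339 in wild-type cultures and 24.9 and 37.5 in deficient cultures, a ratio of 10.5. Tfpi2, a serine protease inhibitor of the matrix, kept 22.1%. All 4 secreted members were higher on deficient replicate 2 than on deficient replicate 1, an order found in 78.4% of all member probe sets.

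Nuclear members were H2ac19, a histone H2A gene, Creb3l2, a membrane-bound transcription factor of the secretory pathway, and Satb1, a chromatin organiser. They kept 16.9%, 22.7% and 13.2% of the wild-type signal. The last 4 members were Rps9, a ribosomal protein, Tmem98, a membrane protein, Spa17, a protein first described in sperm, and Trav9d-3, a variable segment of the T cell receptor alpha chain. Tmem98 gave 407 and 233 in wild-type cultures and 6.0 and 7.0 in deficient cultures, and both deficient signals were under the 25th percentile of all signals. Spa17 and Trav9d-3 kept 25.99% and 11.05%, for Trav9d-3 16.4% and 5.70% on the deficient arrays. Trav9d-3 is named by a probe set that may also bind related sequences, and Cd3e, a subunit every T cell receptor needs, was at most 41.0 on any array.

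How far a member depends on its probe set could be seen where a gene had others that the rule did not take. There were 51 such probe sets in 32 genes, and the other 33 genes had none. Of the 33 probe sets with a wild-type mean of at least 100, in 24 genes, 25 (19 genes) had both wild-type signals above both deficient signals, 2 had overlapping groups and 6 (3 genes) had a deficient mean at or above the wild-type mean. The 3 genes were Rps9, Tbca and Ezr. Rps9 gave 2583 and 3121 in wild-type cultures and 465 and 334 in deficient cultures on its member probe set and 8051 and 8711 in wild-type cultures and 8430.3 and 9312 in deficient cultures on its brightest other one. Tbca gave 1816 and 988 in wild-type cultures and 224 and 194 in deficient cultures on its member probe set and 4243 and 4274 in wild-type cultures and 5054 and 4972 in deficient cultures on another. Ezr gave 634 and 502 in wild-type cultures and 111 and 96.7 in deficient cultures on its member probe set and 779.9 and 540.3 in wild-type cultures and 1129 and 1169 in deficient cultures on another. In these 3 genes the member probe set was of the _x_at type, whose probes may bind several transcripts, and what it measured cannot be told apart from a related sequence. In all, 6 member probe sets were of that type, those of Rps9, Tbca, Ezr, H2ac19, Trav9d-3 and Apbb1. H2ac19, Apbb1 and Trav9d-3 also had a probe set of another type with both wild-type signals above both deficient signals. For H2ac19 it gave 579 and 672 in wild-type cultures and 101 and 208 in deficient cultures, and for Trav9d-3 199.5 and 125 in wild-type cultures and 23.1 and 8.0 in deficient cultures.

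**Figure D4:**
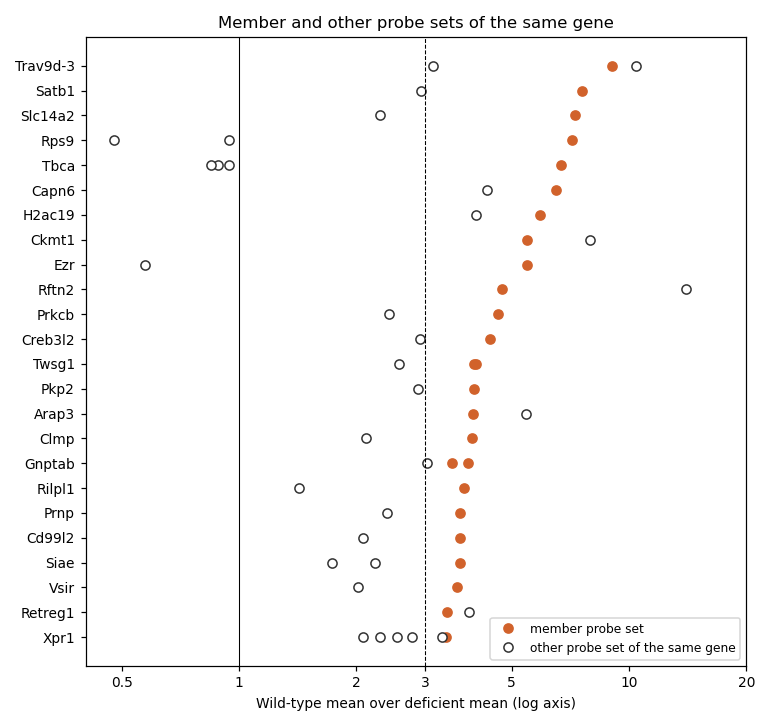
Ratio of the wild-type mean to the deficient mean (log axis) for member probe sets (orange) and other probe sets with a wild-type mean of at least 100 (open) of the same 24 genes. The solid line is a ratio of 1 and the dashed line a ratio of 3; open points of Rps9, Tbca and Ezr lie below 1, between 0.479 and 0.945.

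In the members' signals the deficient cultures differed from each other more than the wild-type cultures did. The median ratio between the 2 arrays of a group was 1.14 for wild-type and 1.40 for deficient cultures over the 65 genes. The rule makes the deficient signals the dimmer ones (median of means 104 against 640.4), and MAS5 signals of dim probe sets are imprecise. These spreads are thus not compared at like signal, and the part of signal level in them was not tested. Wild-type arrays differed by over 1.5-fold in 5 genes, Ccr3, H2ac19, Tbca, Tmem98 and Trav9d-3, and deficient arrays in 27. Deficient arrays differed by over 2-fold in 10 genes, Akr1c18, Denn2b, Edil3, Fblim1, Gimap6, Serpind1, Slc16a7, Spns2, Trav9d-3 and Trp53inp2, and in these the ratio of means moves by over 1.5 times with the deficient array used. Deficient replicate 2 lay above replicate 1 in 58 of 74 member probe sets (78.4%), by a median log2 difference of 0.37. Wild-type replicate 2 lay above replicate 1 in 63.5% of them, by a median of 0.10. It did so in 59.9% of the probe sets called lower that are no members, by a median of 0.05. Over all probe sets with a wild-type mean of at least 200 the share was 48.2%. For the deficient arrays, replicate 2 was the higher in 72.6% of 1478 probe sets called lower that are no members, with a median of 0.13, and in 54.4% of 9559 probe sets with a wild-type mean of at least 200, with a median of 0.02. Nfatc1 was also higher in deficient replicate 2, which kept 70.8% and 75.0% of the wild-type signal on its probe sets against 52.1% and 62.0% in replicate 1. The rule would have taken 124 probe sets without deficient replicate 2 and 87 without deficient replicate 1. Leaving out a deficient array can only add probe sets. Summed signals of 8 measured osteoclast markers were 49261 and 55879 in wild-type and 20705 and 27933 in deficient cultures; 4 of the 8 markers, Calcr, Itgb3, Oscar and Car2, are among the genes left out by name. Summed signals of 7 granulocyte markers were 4829 and 5720 in wild-type and 14611 and 7093 in deficient cultures, and those of 7 macrophage markers were 22877 and 26825 in wild-type and 18770 and 18763 in deficient cultures. The sums of 5 dendritic cell markers were higher on both deficient arrays (2516 and 2227 against 3753 and 3529.8 in deficient cultures), as were those of 5 progenitor and mast cell markers (561 and 420.1 against 801 and 642) and 3 lymphoid markers (196 and 139 against 278 and 348). Those of 2 erythroid markers (136 and 84.9 against 119 and 159) and 5 stromal markers (358 and 244 against 334 and 264) overlapped between genotypes. Each sum rests mostly on its brightest markers, and some lists held markers that moved apart. Of the lymphoid markers, Il7r was higher (132 and 80.5 against 242 and 275.5) and Cd3e lower (28.0 and 41.0 against 10.1 and 18.8). Cd14, a macrophage marker, was higher in deficient cultures (log2 change 0.54). On every array, 3 of the 5 progenitor and mast cell markers and 2 of the 3 lymphoid markers were under 200. The part of these differences in the members' signals was not tested.

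**Figure D5:**
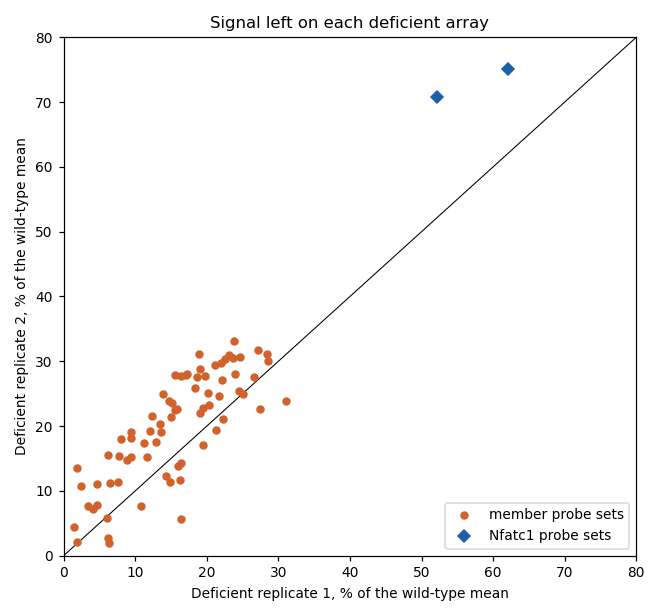
Signal on each deficient array as % of the wild-type mean, replicate 1 against replicate 2, for the 74 member probe sets (orange) and the 2 Nfatc1 probe sets (blue), with a line of equal values. Of the member points 58 lie above the line, and the Nfatc1 points lie at 52.1% and 62.0% on the horizontal axis.

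Just inside the fold of the rule were Gnptab, Siae, Rilpl1, Clmp and Prnp, whose lower wild-type signal was 3.00 to 3.06 times the higher deficient signal. Just outside were Dusp6 (2.96), an ERK phosphatase, Scd2 (2.95), a fatty acid desaturase, Lgalsl (2.94), a galectin-like protein, Stk17b (2.93), a serine/threonine kinase, and Lnx1 (2.88), a ubiquitin ligase. Stk17b gave 1515 and 1426 in wild-type cultures and 487 and 471 in deficient cultures, values that differ little in ratio from those of Gnptab. Scd2 was just outside on a dim probe set.

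In 7 family lists named for the members' functions, 100 genes that are not members were tested with limma, and 14 (14%) were lower and 15 (15%) were higher, with a median log2 change of -0.04. These shares stand beside 11.9% and 12.9% over all genes. The largest changes were those of Cd109 and Scd2. Cd109, a surface protein that binds TGF-beta, gave 1079.5 and 1326 in wild-type cultures and 329.8 and 456 in deficient cultures (log2 change -1.57, SE 0.18, adjusted p = 0.000679). Scd2, on its brightest probe set, gave 2361 and 1996 in wild-type cultures and 783 and 680.1 in deficient cultures (log2 change -1.54, SE 0.13, adjusted p = 0.000236). Pip5k1b, a kinase that makes the phosphoinositide PIP2 (-1.34), Pla2g7, a phospholipase of oxidised lipids (-1.29), and Rgs10, a brake on G protein signalling (-1.02), also fell on the log2 scale. In the opposite direction to the members, beside the carriers and Plpp2 above, Col18a1, a basement membrane collagen (1.13), Dock2 (0.87) and Dock1 (0.74), activators of Rac, Gpc1 (0.66) and Sdc1 (0.34), heparan sulphate carriers, Fabp5, a fatty acid binding protein (0.64), Pltp, a phospholipid transfer protein (0.60), and Arf6, a GTPase of membrane recycling (0.44), were higher. The calls of Dock1, Gpc1, Sdc1 and Arf6 were lost without either deficient array. The Col18a1 call was lost without deficient replicate 2 and the Fabp5 call without deficient replicate 1. Only Dock2 and Pltp in this group kept the call whichever array was left out. Without deficient replicate 1 the count of higher genes was 6, and without deficient replicate 2 it was 9. Of the 29 calls, 14 were lost on leaving out 1 array or another of the 4, and the same held for 11 of the 23 calls among the relatives.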

How the data were processed

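Gene expression was measured on 4 arrays, 2 of wild-type and 2 of NFATc1-deficient mouse osteoclast cultures. The deposited values are probe set intensities on a linear scale that the authors made with MAS5, per the submitters' processing notes; the sources used here name no MAS5 version and no detection calls were used. Without its top and bottom 2%, each array had a mean of 499.9 or 500.0, so arrays had been brought to 1 common mean. MAS5 signals of dim probe sets are imprecise, and with 2 arrays a group all values have limited precision. Of 22690 probe sets, 64 were controls, 691 had several gene symbols and 1555 had none in the platform annotation, and these were left out.

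Log2 changes are of log2(signal + 23.3), with 23.3 the 25th percentile of all values, so they understate changes of dim genes. The 13577 probe sets whose mean exceeded the 40th percentile were compared by limma 3.58.1 (R 4.3.3; lmFit and eBayes with an intensity trend, deficient minus wild-type, two-sided, Benjamini-Hochberg adjustment at 0.05), on code tested on simulated data. For genes, the brightest tested probe set was used. Same-numbered arrays share the number of mice per pool and, in both genotypes, the level of Xist and Eif2s3y. The number is thus tied to the sex of the pools. The correlation of the deviations of same-numbered arrays from their group means was 0.13 across the 13577 probe sets tested. No label states a shared litter or day, and the block was kept as an alternative.

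The members and all lists were chosen with earlier results of these data known. Values on every array are given for the 15 members with the highest wild-type mean, the 15 with the largest ratio after adding the pseudocount, those with 2 member probe sets, the 5 just inside the fold, and those with a known osteoclast role; of family-list genes, the 10 largest changes and all that were higher are named. Relatives of members were to be found by protein identity, and named families were used in place of it, since no protein table was used here. Promoter windows are RefSeq's. Alternatives covered the fold, the minimum, the pseudocount, the filter, the trend, scaling, the replicate block and each array left out.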

Additional observations from a re-analysis of the deposited data

Results flagged for a closer look

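The hybridisation controls, bacterial and phage transcripts added to each sample at fixed amounts and not part of the comparison, were brighter on both deficient arrays. Their mean log2 signal was higher in deficient than in wild-type samples by 0.32 for BioB (6 probe sets), 0.30 for BioC (4 probe sets), 0.27 for BioD (4 probe sets) and 0.22 for Cre (4 probe sets). The members were lower on the same arrays. The part of this difference in the members' signals was not tested.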

How the results depend on the processing

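By the rule, 74 probe sets were taken. A fold of 2 gave 224, a fold of 4 gave 41, no minimum on the wild-type mean gave 213, and a ratio of group means gave 119. Leaving out each array in turn gave 87 to 124, the highest without deficient replicate 2. Of these settings only the fold of 4 asks more of a probe set. The others loosen the fold or the minimum, so counts above 74 follow largely from how the rule is built. For the 36 members with values on every array, the rule itself fixes the direction when an array is left out, so those values say nothing of stability. Probe sets called lower numbered 937 to 1541 with each array left out (937 without deficient replicate 1), against 1552. Probe sets called higher, 1740, numbered 1157 with no filter on dim probe sets, 990.0 with no intensity trend, and 840.0 to 1953 with each array left out. Higher family-list genes, 15, numbered 8 with no intensity trend and 6 to 17 with each array left out, the fewest without deficient replicate 1. With the replicate number as a block, 1799 probe sets were lower and 2048 higher. Within replicate numbers the rule took 85, and every probe set that meets the main rule also meets this form. The share of members with a TGANTCA match was 18.4% with first windows alone, an alternative chosen after seeing the data. The cause of the shifts in the limma calls was not tested.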

Other observations

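Among probe sets that met the fold and the minimum, 3 carry no symbol or several and stayed outside the 65 genes. Probe set 1416666_at, with no symbol, gave 1471 and 1345 in wild-type and 31.8 and 57.1 in deficient cultures. Probe set 1448737_at, also with no symbol, gave 987 and 1043 in wild-type and 158 and 324 in deficient cultures. Probe set 1422155_at, with 8 symbols, all of histone H3 genes, gave 426 and 424 in wild-type and 88.6 and 84.7 in deficient cultures.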
